A study of Mus musculus with 6 samples.

Results

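The 10 genes described here encode alcohol dehydrogenases, aldehyde dehydrogenases and aldehyde oxidases of the mouse liver. They are *Adh1*, *Adh4*, *Adh5*, *Adh7*, *Aldh2*, *Aldh1b1*, *Aldh1l1*, *Aldh3a2*, *Aox1* and *Aox3*. They were chosen by symbol from the 54446 genes that the deposited tables list, and all 10 passed the filter on low counts. RNA-seq libraries were made from the livers of 3 wild-type (WT) mice and 3 *Fmo5*-/- mice, which carry a disrupted gene for flavin-containing monooxygenase 5 (FMO5). The mice were chow-fed males on a C57BL/6J background, 32 weeks old, and each gave 1 library. Replicates are numbered within each genotype in the order of the animal identifiers in the sample labels. The study compared the genotypes to ask what the lack of FMO5, an enzyme that is abundant in liver, does to hepatic gene expression.

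Alcohol dehydrogenases oxidize alcohols to aldehydes in the cytosol and pass the electrons to NAD+. Aldehyde dehydrogenases carry the aldehydes on to carboxylic acids, in the mitochondrion, the cytosol or the endoplasmic reticulum, whereas aldehyde oxidases use a molybdenum cofactor, FAD and oxygen and also act on nitrogen heterocycles, including many drugs. The liver is the main organ in which ethanol, retinol, formaldehyde and fatty aldehydes meet these enzymes.

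None of the 10 genes was called differentially expressed by edgeR's quasi-likelihood test (0 of 10), where a call needed an adjusted p under 0.05 together with a normalized count averaging 500 or more. Among the 7819 genes with such a mean, 126 (1.61%) were called, 83 lower (1.06%) and 43 higher (0.55%) in *Fmo5*-/- mice. At an unadjusted p under 0.05, 4 of the 10 had a lower mean in *Fmo5*-/- mice (*Aldh3a2*, *Aox1*, *Aox3* and *Adh4*) and 0 a higher one, against 17.6% of the 7819 genes that were lower and 7.62% that were higher at that p. With the Wald test of DESeq2, 3 of the 10 passed an adjusted p under 0.05, all lower in *Fmo5*-/- mice (*Aldh3a2*, *Aox1* and *Aox3*), against 6.77% of 7796 genes that were lower and 9.54% called in either direction. The 6 genes other than these and *Adh4* (*Adh1*, *Adh5*, *Adh7*, *Aldh2*, *Aldh1b1* and *Aldh1l1*), which include those of the main route from ethanol to acetate, had *Fmo5*-/- means between 93.1% and 107% of the WT mean. Each p rests on 3 mice per genotype. In whole liver, fewer cells of a type and less RNA per cell cannot be told apart.

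The libraries held 44886286 to 52338675 counts on genes. *Fmo5* itself, the targeted gene, had normalized counts (counts divided by the effective library size and multiplied by its mean over the 6 libraries) of 39808, 37405 and 30240 in WT mice and of 1071, 1102 and 1194 in *Fmo5*-/- mice. The log2 fold change was -5.00 (SE 0.14, edgeR adjusted p = 2.79e-07). Levels in CPM are counts per 1000000 of the effective library size. Hepatocyte markers overlapped between genotypes, with a summed level of 115091 to 146898 CPM in WT and 115147 to 142543 in *Fmo5*-/- mice. *Alb* alone made up 72.8% to 77.4% of this sum, which without it was 31357 to 36146 CPM in WT and 31126 to 32261 in *Fmo5*-/- mice, and 8 of the 9 markers found had a lower mean in *Fmo5*-/- mice (median log2 fold change -0.07, 1 at an unadjusted p under 0.05). All 8 Kupffer cell markers had a higher mean in *Fmo5*-/- mice. Their summed level was 185 to 221 CPM in WT and 290 to 532 in *Fmo5*-/- mice, none of them was at 0, and all 8 had an unadjusted p under 0.05. Of all 16734 genes tested, 50.8% had a higher mean in *Fmo5*-/- mice and 11.6% were higher at that p. With edgeR 1 Kupffer cell marker was called, *Clec4f* (log2 fold change 0.70, SE 0.11, adjusted p = 0.0275, and 0.05004 to 0.102 without WT replicate 1 or 2 or *Fmo5*-/- replicate 1 or 2, which ended the call), and DESeq2 passed 5 of the 6 with a mean of 500 or more. The 8 leukocyte markers also had a higher mean in *Fmo5*-/- mice, 6 of them at an unadjusted p under 0.05 (median log2 fold change 1.28), with a summed level of 13.9 to 19.8 CPM in WT and 21.1 to 47.9 in *Fmo5*-/- mice. The 4 adipocyte markers summed to 12.0, 8.46 and 6.14 CPM in WT and to 3.02, 3.91 and 3.30 in *Fmo5*-/- mice. *Cidec*, which encodes a lipid droplet protein that fatty hepatocytes also make, held 83.9% or more of this sum in every library (log2 fold change -1.31, edgeR adjusted p = 0.0228, with a mean below 500). The other 3, *Adipoq*, *Plin1* and *Lep*, were too low to be tested, summed to 1.93 CPM in WT replicate 1 and to 0.021 to 0.32 in the other libraries, and overlapped between genotypes. Summed markers of endothelial cells, stellate cells, cholangiocytes and pancreas overlapped as well, though 7 of the 8 stellate cell markers had a higher mean in *Fmo5*-/- mice (median log2 fold change 0.18, 1 at an unadjusted p under 0.05). The part of these cell types in the results below was not tested.

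The members sit at 6 places of the genome (GENCODE vM21 gene spans, genome build mm10). *Adh7* (chr3:138217760-138233382), *Adh1* (chr3:138260991-138290698), *Adh4* (chr3:138415466-138430892) and *Adh5* (chr3:138443093-138455499) lie on the plus strand within 237.7 kb, between 40.6 and 40.8 Mb from *Fmo5* on the same chromosome. *Aox1* (chr1:58029931-58106413) and *Aox3* (chr1:58113130-58200698) are plus-strand neighbours within 170.8 kb. *Aldh1b1* is at chr4:45799022-45804604 on the plus strand, with 2 exon blocks. *Aldh2* is at chr5:121566027-121593824 on the minus strand, *Aldh1l1* at chr6:90486427-90600203 on the plus strand and *Aldh3a2* at chr11:61223417-61267464 on the minus strand.

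Reads of the members can be told apart. The coding sequences of the 4 *Adh* genes were 59.2% to 68.5% identical in pairs, those of *Aldh2* and *Aldh1b1* 69.0% and those of *Aox1* and *Aox3* 65.6%, and no window of 75 bases was shared between any 2 members. The libraries do not keep the strand, so reads cannot be assigned where genes on opposite strands overlap. *Aldh1l1* shared 7.17% of its windows of 75 bases with *Gm15756*. *Adh1* shared 1.27% with *Gm16559*, *Adh7* 1.10% with *0610031O16Rik* and *Aldh2* 1.48% with *Gm42879*.

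The promoters of the 3 genes that passed DESeq2's threshold are shown because these genes had the lowest fold changes of the set. Each is the 300 bases from 250 before to 50 after a RefSeq start on the gene's own strand (GRCm38.p6), 5′ to 3′, with matches to CCAAT on either strand in capitals. *Aldh3a2* is chr11:61267137-61267436 on the minus strand, *Aox1* chr1:58029719-58030018 and *Aox3* chr1:58112886-58113185, both on the plus strand.
Aldh3a2: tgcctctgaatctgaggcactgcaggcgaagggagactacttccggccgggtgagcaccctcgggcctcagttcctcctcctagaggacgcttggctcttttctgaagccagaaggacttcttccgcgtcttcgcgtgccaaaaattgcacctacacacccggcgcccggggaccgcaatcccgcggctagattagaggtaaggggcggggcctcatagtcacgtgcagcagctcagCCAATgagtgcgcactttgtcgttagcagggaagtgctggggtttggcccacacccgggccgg
Aox1: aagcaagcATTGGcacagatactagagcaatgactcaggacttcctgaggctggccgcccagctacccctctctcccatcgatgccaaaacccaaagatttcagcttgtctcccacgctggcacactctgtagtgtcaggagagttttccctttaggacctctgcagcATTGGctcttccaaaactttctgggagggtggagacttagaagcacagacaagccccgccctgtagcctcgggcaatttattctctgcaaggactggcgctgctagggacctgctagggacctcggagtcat
Aox3: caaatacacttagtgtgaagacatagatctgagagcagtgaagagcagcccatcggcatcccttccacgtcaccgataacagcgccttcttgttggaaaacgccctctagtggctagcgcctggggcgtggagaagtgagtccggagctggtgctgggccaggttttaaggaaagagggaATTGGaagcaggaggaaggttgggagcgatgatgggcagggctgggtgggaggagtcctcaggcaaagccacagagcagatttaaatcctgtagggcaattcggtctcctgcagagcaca

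A promoter was at hand for 9 of the 10 genes, with a pair of starts for *Adh5*. CCAAT, searched as CCAAT and its reverse ATTGG, matched at -13 in *Aldh3a2*, at -242 and -82 in *Aox1* and at -70 in *Aox3*, and was present in 37.4% of all 32851 promoters. It also matched in *Adh4*, *Adh7*, *Aldh1b1* and *Aldh1l1*. TATAAA, searched on both strands and found in 13.6% of all promoters, was absent from these 3 windows and matched in *Adh7* and 1 of the *Adh5* windows. The antioxidant response element core TGACNNNGC, which 12.4% of all promoters hold on either strand, did not match in any of the windows of these 9 genes. The promoter of *Aldh3a2* held 21 CpG dinucleotides, that of *Aox3* 10 and that of *Aox1* 7, against a median of 7 over all promoters. Of the other windows, those of *Adh5* held 3 and 26, that of *Aldh1l1* 9, *Aldh1b1* 7, *Adh1* 6, *Adh7* 3 and *Adh4* 1, so that the 3 genes did not stand apart by this count. The matches are descriptions of letters only.

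Levels were compared between genes per kb of exons per 1000000 of the effective library size. *Adh1*, which encodes the class I enzyme that oxidizes most of the ethanol reaching the liver and also retinol, had the highest level of the set, 863 ± 63.9 in WT mice (SD, n = 3). It was the gene with place 57 among 30441 genes by this level. *Aldh2*, which encodes the mitochondrial enzyme that clears acetaldehyde, followed at 603 ± 49.8 and had place 77. *Aldh1l1*, which encodes 10-formyltetrahydrofolate dehydrogenase of the folate cycle, had 287 ± 5.07. The aldehyde oxidase *Aox3* had 175 ± 5.17, and the ranges of these 4 genes did not overlap in WT mice.

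*Adh4*, which encodes a class II enzyme active on retinol and long-chain alcohols, had a WT level of 143 ± 20.3. *Aldh3a2*, which encodes the fatty aldehyde dehydrogenase of the endoplasmic reticulum, had 98.9 ± 29.2, and *Adh5*, which encodes the class III enzyme for glutathione-bound formaldehyde and S-nitrosoglutathione, had 87.3 ± 3.41. The WT range of *Aldh3a2* overlapped with those of *Adh4* and *Adh5*, so its place beside them is not resolved. On this scale the WT range of *Adh4* lay above that of *Adh5*. *Aox1* had 28.9 ± 7.90 and *Aldh1b1*, a mitochondrial relative of *Aldh2*, 24.0 ± 1.14, again with overlap. *Adh7*, the class IV enzyme best known from the stomach and upper digestive tract, was the lowest at 9.28 ± 1.69. These levels divide by all exon bases of a gene, and the middle of the order depends on that length. Per kb of the longest protein-coding transcript, *Adh5* had 294 ± 11.5 in WT mice, 3.37 times its level per kb of all exons, and moved from place 7 to place 4, above *Aox3* (267 ± 7.89). *Aldh3a2* then had 180 ± 53.0 and *Adh4* 158 ± 22.4, with overlap, and *Aox1* 56.8 ± 15.5, above and apart from *Aldh1b1*. *Adh1*, *Aldh2* and *Aldh1l1* kept places 1 to 3 and *Aldh1b1* and *Adh7* places 9 and 10.

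**Figure D1:**
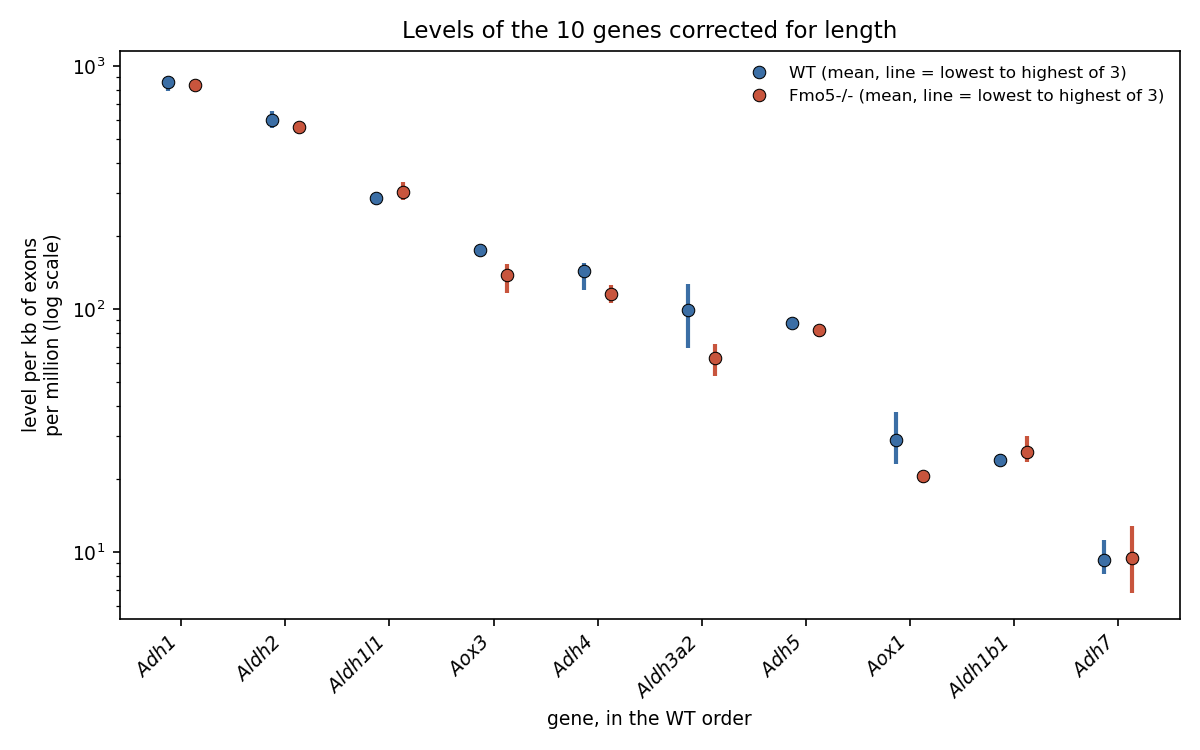
Level of each gene per kb of exons per 1000000 of the effective library size (log scale). The mean and the lowest to highest of 3 mice per genotype are shown, in the WT order. Levels run from 863 for *Adh1* to 9.28 for *Adh7* in WT mice. *Aldh3a2* and *Aox1* have place 6 and 8 in WT and place 7 and 9 in *Fmo5*-/- mice.

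In *Fmo5*-/- mice the order per kb of all exons differed at 2 places. *Adh5* (82.1 ± 4.70) stood above *Aldh3a2* (62.8 ± 9.31), and *Aldh1b1* (25.8 ± 3.64) above *Aox1* (20.6 ± 1.11). In neither pair did the *Fmo5*-/- ranges overlap, whereas both pairs overlapped in WT mice. Neither exchange was seen per kb of the longest transcript. There *Aldh3a2* instead changed places with *Adh4*, but their ranges overlapped in both genotypes, so that exchange is not resolved. Per kb of all exons, *Adh1* held 78.3% of the summed level of the 4 *Adh* genes in WT and 80.1% in *Fmo5*-/- mice, *Aldh2* 59.5% and 58.9% of the 4 *Aldh* genes, and *Aox3* 85.8% and 87.0% of the 2 *Aox* genes. Together the 10 genes took 0.835% to 0.930% of all counts on genes in the 6 libraries.

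The following values are normalized counts, which compare libraries and not genes. *Adh1* had 97363, 86050 and 98730 in WT mice and 90574, 92341 and 89804 in *Fmo5*-/- mice. The *Fmo5*-/- values all lay within the WT range, and the log2 fold change was -0.05 with a 95% confidence interval of -0.26 to 0.16 (edgeR adjusted p = 0.810). The coefficient of variation was 7.40% in WT and 1.43% in *Fmo5*-/- mice.

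*Adh4* had 10979, 10939 and 8468 in WT mice and 7465, 8860 and 8252 in *Fmo5*-/- mice. WT replicate 3 lay below the highest *Fmo5*-/- value, and the other WT mice lay above all *Fmo5*-/- values. The *Fmo5*-/- mean was 80.9% of the WT mean, with a log2 fold change of -0.31 (SE 0.12, 95% confidence interval -0.58 to -0.035). The adjusted p was 0.182 with edgeR and 0.118 with DESeq2.

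*Adh5* had 23639, 22001 and 23464 in WT mice and 22178, 20245 and 22560 in *Fmo5*-/- mice. The genotypes overlapped, and the log2 fold change was -0.09 (95% confidence interval -0.29 to 0.11, edgeR adjusted p = 0.603). *Adh7* had 1504, 2072 and 1566 in WT mice and 1255, 1643 and 2370 in *Fmo5*-/- mice. Both the lowest and the highest *Adh7* value came from *Fmo5*-/- mice, whose coefficient of variation of 32.2% was the largest of the set. Its log2 fold change of 0.03 had an interval of -0.55 to 0.62 and therefore sets only wide limits (edgeR adjusted p = 0.952). Of 10 markers of foregut epithelium, 7 were at 0 in all libraries, among them *Krt5*, *Krt13*, *Gkn1*, *Gkn2* and *Muc5ac*, and the summed level of all 10 was 0.263 to 0.398 CPM.

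**Figure D2:**
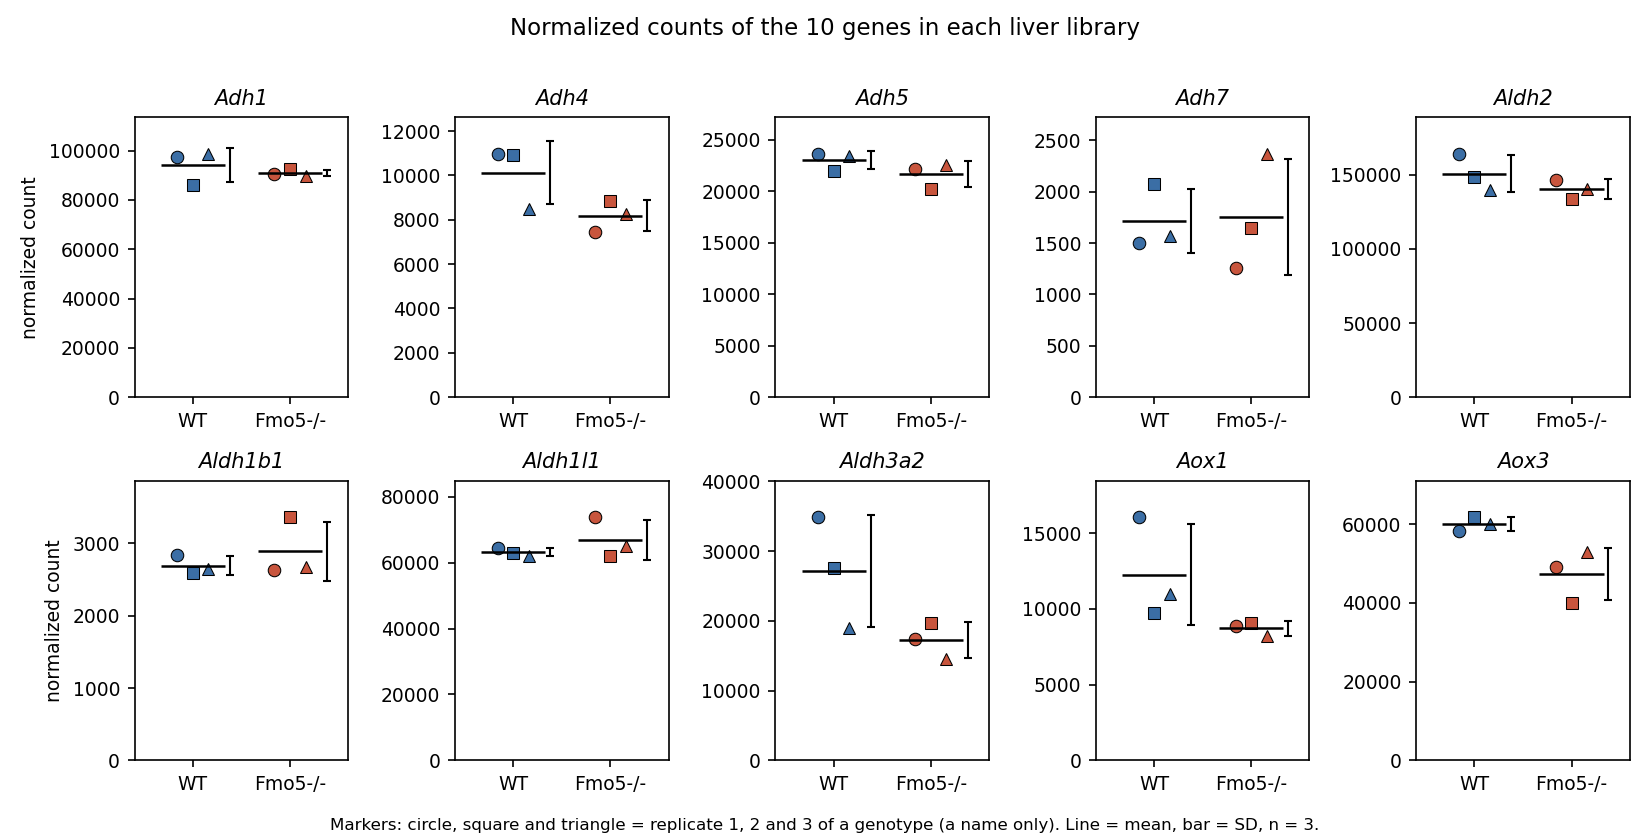
Normalized counts (axes from 0) of each gene in the 3 WT and 3 *Fmo5*-/- libraries, with the mean and SD. All *Fmo5*-/- values lie below all WT values for *Aox1* and *Aox3*. The genotypes overlap for the other 8 genes, *Aldh3a2* included.

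*Aldh2* had 164200, 148608 and 139554 in WT mice and 146707, 133826 and 140687 in *Fmo5*-/- mice. The genotypes overlapped, and the log2 fold change was -0.10 (95% confidence interval -0.33 to 0.12, edgeR adjusted p = 0.594). *Aldh1b1* had 2840, 2598 and 2646 in WT mice and 2637, 3365 and 2680 in *Fmo5*-/- mice. *Fmo5*-/- replicate 2 alone stood above the WT range, and the log2 fold change of 0.10 (edgeR adjusted p = 0.616) became -0.019 without it. The interval with all 6 libraries was -0.13 to 0.34.

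*Aldh1l1* had 64339, 63044 and 62112 in WT mice and 73801, 62058 and 64895 in *Fmo5*-/- mice. The WT mice were the most alike of any gene of the set, with a coefficient of variation of 1.77%, and *Fmo5*-/- replicate 1 stood highest. The log2 fold change was 0.08 (95% confidence interval -0.14 to 0.30, edgeR adjusted p = 0.666). Within libraries, the ratio of *Aldh1l1* to *Aldh2* counts was 0.392, 0.424 and 0.445 in WT and 0.503, 0.464 and 0.461 in *Fmo5*-/- mice. It was the only one of 9 ratios between members whose genotypes did not overlap, with an exact two-sided permutation p of 0.1, the smallest that 3 against 3 can give, and 0.6 after adjustment over the 9.

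*Aldh3a2* had the lowest log2 fold change of the set. It oxidizes the fatty aldehydes that arise from sphingosine 1-phosphate, phytol and ether lipids. Its normalized counts were 34882, 27592 and 18910 in WT mice and 17376, 19698 and 14603 in *Fmo5*-/- mice. The WT mice spread widely (coefficient of variation 29.5%), and the lowest of them, WT replicate 3, lay below *Fmo5*-/- replicate 2. The 3 WT mice had the same order in *Aldh3a2* as in the summed adipocyte markers given above, as they also had in *Adh4*, *Aldh2* and *Aldh1l1* and in 18.0% of the 7819 genes, and the part of these markers in the result was not tested. The *Fmo5*-/- mean was 63.5% of the WT mean, a log2 fold change of -0.66 (SE 0.22, 95% confidence interval -1.16 to -0.15). The adjusted p was 0.143 with edgeR and 0.0119 with DESeq2. Without WT replicate 3 the log2 fold change was -0.86 and edgeR's adjusted p 0.0496, and without WT replicate 1, the highest, they were -0.43 and 0.325.

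For both aldehyde oxidases, all 3 *Fmo5*-/- values lay below all 3 WT values, which held for 21.9% of the 7819 genes. No other gene of the set separated the genotypes in either direction, and 9.39% of the 7819 genes were higher in every *Fmo5*-/- mouse. *Aox1* had 16067, 9742 and 10994 in WT mice and 8889, 9073 and 8185 in *Fmo5*-/- mice. WT replicate 1 stood far above the other WT mice, and the gap between the nearest WT and *Fmo5*-/- values was small beside the WT spread (coefficient of variation 27.3%). WT replicate 1 was also the library with the highest summed adipocyte markers, whose part in the result was not tested. The mean was 71.0% of the WT mean, with a log2 fold change of -0.49 (SE 0.17, 95% confidence interval -0.89 to -0.097). The adjusted p was 0.152 with edgeR and 0.0363 with DESeq2, and without WT replicate 1 the log2 fold change was -0.25 (edgeR adjusted p = 0.329).

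*Aox3* had 58267, 61811 and 59957 in WT mice and 49232, 40044 and 52856 in *Fmo5*-/- mice. The WT mice were close to each other (coefficient of variation 2.95%) and the *Fmo5*-/- mice less so (13.9%), with replicate 2 the lowest. The mean was 78.9% of the WT mean, a log2 fold change of -0.34 (SE 0.11, 95% confidence interval -0.60 to -0.082). The adjusted p was 0.135 with edgeR and 0.0489 with DESeq2. The ratio of *Aox3* to *Aox1* counts overlapped between genotypes (5.14 ± 1.39 in WT and 5.47 ± 1.02 in *Fmo5*-/- mice, SD, n = 3, exact two-sided permutation p = 0.6).

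Summed over each family, normalized counts of the 2 *Aox* genes were 74333, 71552 and 70951 in WT and 58121, 49117 and 61041 in *Fmo5*-/- mice. The genotypes did not overlap (exact two-sided permutation p = 0.1, the smallest that 3 mice against 3 allow). The 4 *Adh* genes summed to 128925 ± 6839 in WT and 122515 ± 906 in *Fmo5*-/- mice (SD, n = 3, exact permutation p = 0.4). The 4 *Aldh* genes summed to 243775 ± 21584 and 227445 ± 11493 (SD, n = 3, exact permutation p = 0.2). *Adh1* and *Aldh2* make up most of these sums.

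**Figure D3:**
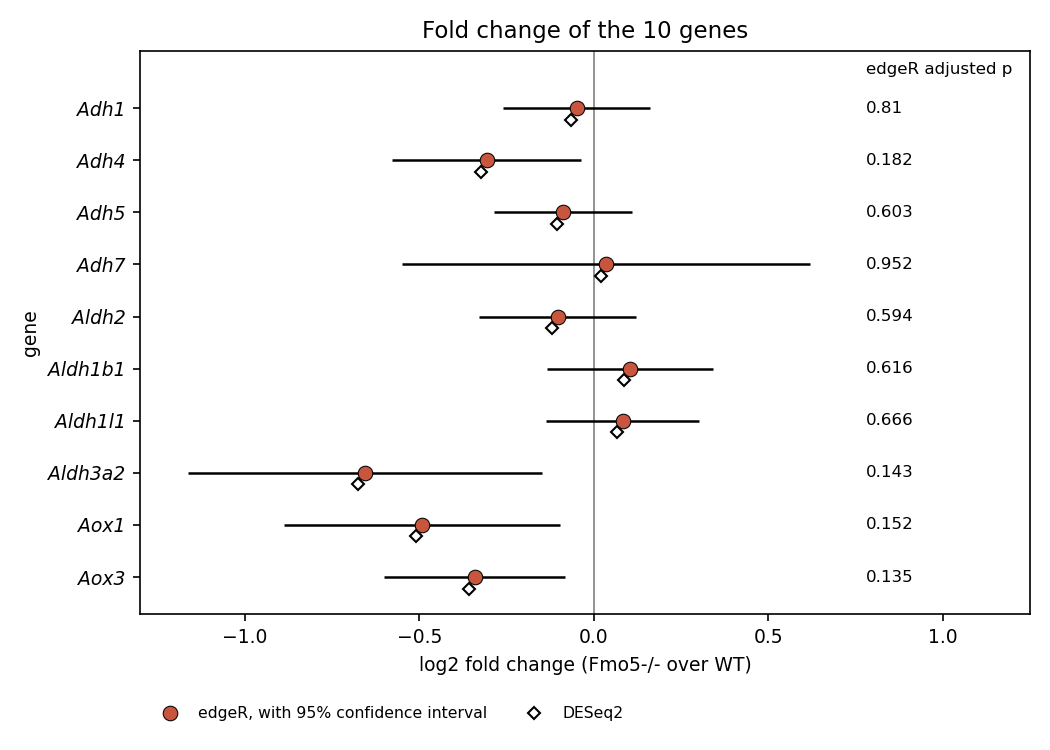
Log2 fold change (*Fmo5*-/- over WT) of each gene with edgeR's 95% confidence interval, DESeq2's estimate and edgeR's adjusted p. The intervals of *Adh4*, *Aldh3a2*, *Aox1* and *Aox3* lie below 0 and those of the other 6 genes include 0.

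Of the 10 log2 fold changes, 7 were negative, with a median of -0.10. Of the 7819 genes with a mean of 500 or more, 64% were negative, with a median of -0.06. The share of lower members therefore lay close to that of all genes of such abundance. The 4 lowest fold changes belonged to *Aldh3a2*, *Aox1*, *Aox3* and *Adh4*, and no interval of the set had its lower bound above 0.

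The genes that lie beside the members were examined for the *Adh* cluster and the *Aox* pair. Within 1 Mb of the *Adh* cluster, 18 other genes were tested, 9 of them with the mean of 500 that a call needs, and 1 was called lower. On the whole of chromosome 3, which also holds *Fmo5*, 21 of 380 genes with such a mean were called (5.53%). Over all chromosomes the share was 1.61%. At an unadjusted p under 0.05, 4 of the 18 were lower and 1 higher, where 10.2% of all genes tested were lower and 11.6% higher. Among genes with a mean of 500 or more, these shares were 17.6% and 7.62%. The gene called lower was *Mttp*, which encodes the microsomal triglyceride transfer protein that loads lipid onto apolipoprotein B. It had 16669, 17941 and 15561 in WT and 12648, 9820 and 10855 in *Fmo5*-/- mice, with a log2 fold change of -0.59 (SE 0.11, edgeR adjusted p = 0.0468). The genotypes did not overlap for *Mttp*, whereas the log2 fold changes of the nearest members, *Adh7* and *Adh1*, were near 0. The call of *Mttp* was lost whichever of the 6 libraries was left out (log2 fold change -0.70 to -0.51, edgeR adjusted p = 0.0543 to 0.131). *Dapp1*, an adaptor protein of leukocyte signalling, was low in count (40.0 ± 4.14 in WT and 76.7 ± 18.7 in *Fmo5*-/- mice, SD, n = 3) with a log2 fold change of 0.94 (edgeR adjusted p = 0.0779 and DESeq2 0.0316).

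Within 1 Mb of the *Aox* pair, 24 other genes were tested, 12 of them with a mean of 500 or more, and 0 were called with edgeR (5 of the 24 lower and 0 higher at an unadjusted p under 0.05, against the same shares), while DESeq2 passed *1700066M21Rik* and *Bzw1*. *1700066M21Rik* had a log2 fold change of -0.46 (SE 0.11, edgeR adjusted p = 0.0672). *Bzw1*, which encodes a regulator of translation initiation, had -0.30 (SE 0.09, edgeR adjusted p = 0.0972). The median log2 fold change of the 24 genes was -0.05 and that of the 18 near the *Adh* cluster -0.10. *Aox2* and *Aox4*, the further aldehyde oxidases of the same stretch, are known from nasal and Harderian gland and not from liver. *Aox2* had 5 to 9 raw counts per library and *Aox4* 0 or 1, and both were too low to be tested.

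**Figure D4:**
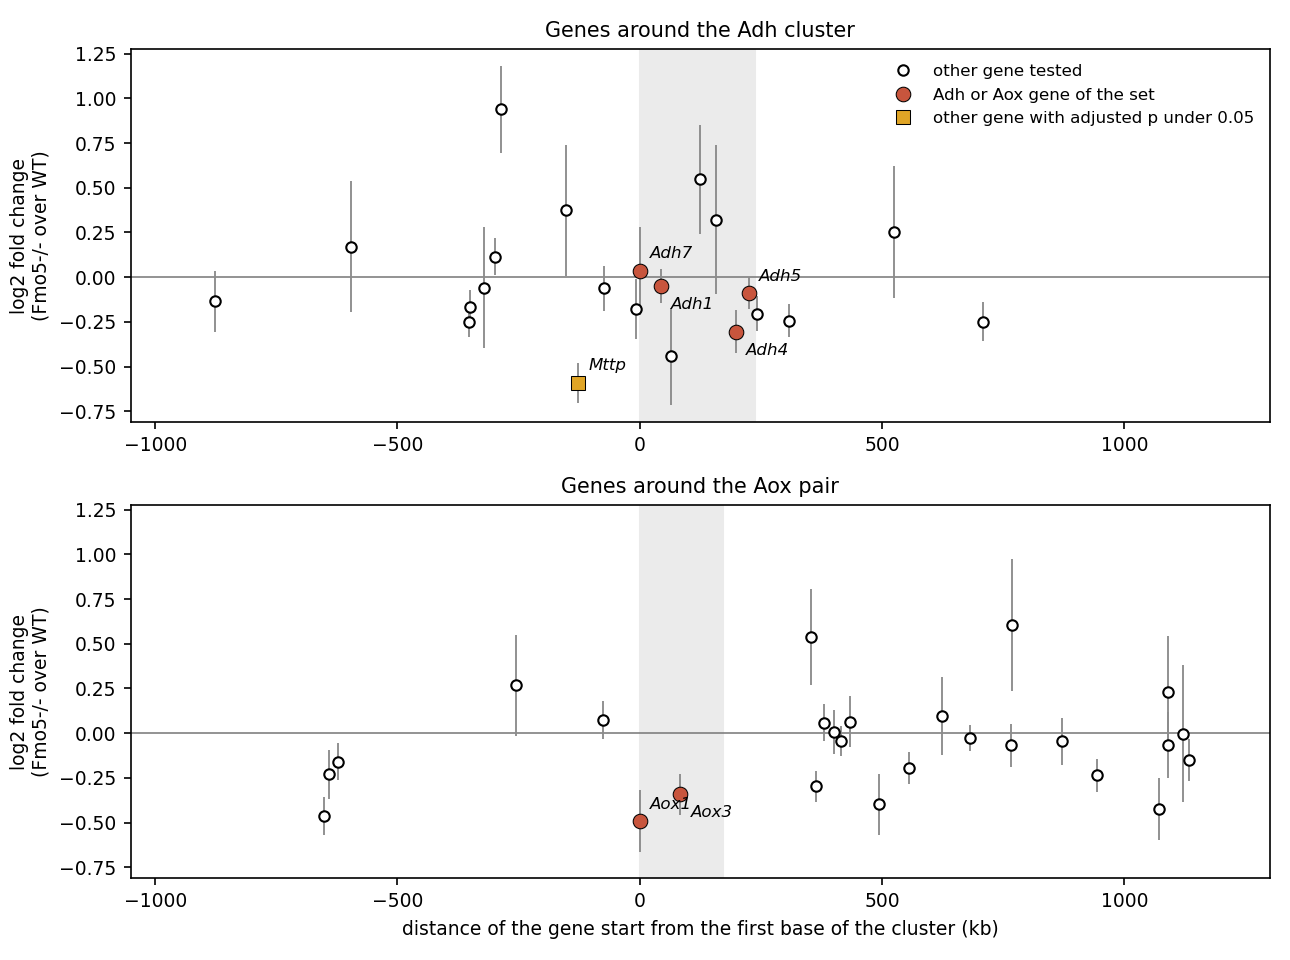
Log2 fold change with its standard error for the genes tested within 1 Mb of the *Adh* cluster (upper panel, 22 genes) and of the *Aox* pair (lower panel, 26 genes), against the distance of the gene start from the first base of the cluster in kb. *Mttp* at -0.59 is the 1 gene called.

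Further dehydrogenases, partner enzymes and cofactor genes were described from 5 lists with 81 genes, of which 75 were tested. With edgeR, 0 of them were called. Of the 55 with a mean of 500 or more, 18 had an unadjusted p under 0.05, against 25.2% of all such genes. Of these, 17 were lower (30.9% of the 55, against 17.6% of all such genes). DESeq2 passed 10, all lower, against 6.77%. Their median log2 fold change was -0.15, against -0.06 over all such genes, and 49 of the 55 (89.1%) were negative, against 64%.

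Among 21 other alcohol and aldehyde dehydrogenases, 18 were tested and 0 called (4 lower and 2 higher at an unadjusted p under 0.05, against 10.2% and 11.6% of all genes tested). The shares among all genes with a mean of 500 or more, which 11 of the 21 had, were 17.6% and 7.62%. The most abundant in counts of these dehydrogenases was *Aldh1a1*. It encodes a cytosolic retinal dehydrogenase, next to *Adh1* in the route from retinol to retinoic acid, and can share reads with its close copy *Aldh1a7*. It had 104728, 99869 and 78300 in WT and 69434, 71397 and 64585 in *Fmo5*-/- mice, with no overlap. The log2 fold change was -0.46 (SE 0.12), with an adjusted p of 0.0818 with edgeR and 0.00600 with DESeq2. *Aldh5a1*, succinate semialdehyde dehydrogenase of the mitochondrion, had -0.40 (SE 0.09, edgeR adjusted p = 0.0657 and DESeq2 0.00880).

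*Aldh3b1*, which acts on medium- and long-chain aldehydes, had a mean of 110 ± 4.77 in WT and 203 ± 54.6 in *Fmo5*-/- mice (SD, n = 3, log2 fold change 0.88, edgeR adjusted p = 0.0678 and DESeq2 0.00434). *Aldh18a1*, which makes the precursor of proline, had 57.4 ± 19.4 and 111 ± 20.1 (SD, n = 3, log2 fold change 0.95, edgeR adjusted p = 0.0908 and DESeq2 0.0208). Both thus passed an adjusted p under 0.05 with DESeq2 but lay below the limit of 500 on the mean, and so are not among the 10 above. The same held for *Aldh3b3*, named after its values were seen, which had 7.39 ± 6.60 and 37.9 ± 40.4 with overlap (SD, n = 3, log2 fold change 2.34, edgeR adjusted p = 0.257 and DESeq2 0.0460). Of the 15571 genes with an adjusted p from DESeq2, 4.75% were higher at this threshold. *Adh6a* and *Adh6b*, within the *Adh* cluster, were barely expressed, with 0 to 6 and 8 to 17 raw counts per library. The log2 fold change of *Adh6b* was 0.55 with an interval of -0.14 to 1.24 (edgeR adjusted p = 0.335).

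The molybdenum enzymes and cofactor genes, which share their cofactor with *Aox1* and *Aox3*, numbered 11 (9 tested, 0 called, 4 lower and 1 higher at an unadjusted p under 0.05). At that p, 10.2% of all genes tested were lower and 11.6% higher, and 17.6% and 7.62% of those with a mean of 500 or more. *Xdh*, which encodes the related xanthine dehydrogenase, had 10086, 9706 and 8378 in WT and 11126, 11486 and 10438 in *Fmo5*-/- mice. Its values were thus higher in every *Fmo5*-/- mouse, opposite to both *Aox* genes, with a log2 fold change of 0.23 (SE 0.10, edgeR adjusted p = 0.205 and DESeq2 0.245). *Marc1*, which encodes an amidoxime-reducing molybdenum enzyme of the mitochondrion, had 24131, 23908 and 24544 in WT and 19566, 17473 and 19607 in *Fmo5*-/- mice. Its log2 fold change was -0.36 (SE 0.09), with an adjusted p of 0.0710 with edgeR and 0.00329 with DESeq2. *Gphn*, whose product inserts the molybdenum into the cofactor, had -0.31 (SE 0.08, edgeR adjusted p = 0.0818 and DESeq2 0.0308), and *Suox*, sulfite oxidase, -0.27 (SE 0.10, edgeR adjusted p = 0.162).

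Of 16 partners of alcohol, acetaldehyde, acetate and carbonyl metabolism, 15 were tested and 0 called (3 lower and 1 higher at an unadjusted p under 0.05, against 10.2% and 11.6% of all genes tested). The shares among all genes with a mean of 500 or more, which 10 of the 16 had, were 17.6% and 7.62%. *Cyp2e1*, the microsomal ethanol oxidase, had a log2 fold change of -0.06 with an interval of -0.39 to 0.28 (edgeR adjusted p = 0.863). *Acss3*, a mitochondrial acyl-CoA synthetase for short chains, had 1208, 959 and 557 in WT and 437, 393 and 395 in *Fmo5*-/- mice. The genotypes did not overlap, and the log2 fold change was -1.15 (SE 0.26), with an adjusted p of 0.0756 with edgeR and 4.08e-05 with DESeq2. *Esd*, whose product completes the route of formaldehyde that *Adh5* opens, had -0.30 (SE 0.08, edgeR adjusted p = 0.0827 and DESeq2 0.0134), and *Dhrs4*, a peroxisomal carbonyl reductase, -0.30 (SE 0.10, edgeR adjusted p = 0.136).

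Of 22 genes of folate one-carbon metabolism, the pathway of *Aldh1l1*, all were tested and 0 called (3 lower and 0 higher at an unadjusted p under 0.05, against 10.2% and 11.6% of all genes tested). The shares among all genes with a mean of 500 or more, which 18 of the 22 had, were 17.6% and 7.62%. *Dmgdh*, dimethylglycine dehydrogenase, had a log2 fold change of -0.42 (SE 0.11, edgeR adjusted p = 0.0794). *Shmt1*, the cytosolic serine hydroxymethyltransferase, had -0.36 (SE 0.11, edgeR adjusted p = 0.116), and *Gldc*, of the glycine cleavage system, -0.41 (SE 0.16, edgeR adjusted p = 0.173). DESeq2 passed *Dmgdh* and *Shmt1*. The median of the list was -0.06.

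Of 11 genes of the fatty aldehyde route around *Aldh3a2*, all were tested and 0 called (3 lower and 1 higher at an unadjusted p under 0.05, against 10.2% and 11.6% of all genes tested). The shares among all genes with a mean of 500 or more, which 8 of the 11 had, were 17.6% and 7.62%. *Slc27a2*, a very long-chain acyl-CoA synthetase, had 52609, 53351 and 47543 in WT and 40578, 39111 and 39407 in *Fmo5*-/- mice. Its log2 fold change was -0.37 (SE 0.09, edgeR adjusted p = 0.0710), and that of *Acsl1*, the long-chain acyl-CoA synthetase, -0.50 (SE 0.13, edgeR adjusted p = 0.0818). DESeq2 passed both. *Agmo*, which cleaves ether lipids to fatty aldehydes, had -0.35 (SE 0.12, edgeR adjusted p = 0.136). *Sgpl1*, the lyase that makes the fatty aldehyde from sphingosine 1-phosphate, lay at -0.15 (SE 0.14, edgeR adjusted p = 0.589).

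Several of these enzymes differ along the liver lobule, so markers of its zones were set beside them. The summed level of 11 pericentral genes was 9426 to 12817 CPM in WT and 11021 to 13031 in *Fmo5*-/- mice, and that of 10 periportal genes 8326 to 8549 and 6982 to 8923, both with overlap. *Cyp2e1* alone made up 45.3% to 52.0% of the pericentral sum, and without it the sum was 4830 to 6146 CPM in WT and 5598 to 6826 in *Fmo5*-/- mice. By gene, 9 of the 11 pericentral genes had a higher mean in *Fmo5*-/- mice (median log2 fold change 0.25) and 7 of the 10 periportal genes a lower one (median -0.07), against a median of -0.06 over all genes with a mean of 500 or more. *Cyp1a2* alone was called among the pericentral genes (log2 fold change 0.65, SE 0.10, edgeR adjusted p = 0.0208), and its adjusted p was 0.0855 without WT replicate 1 and 0.0778 without *Fmo5*-/- replicate 1. At an unadjusted p under 0.05, 2 of the 11 pericentral genes were higher and 0 lower. Among all genes with a mean of 500 or more, 0.55% were called higher and 7.62% were higher at that p. Of the periportal genes, 0 were called with edgeR and 3 were lower at an unadjusted p under 0.05, against 17.6% of the genes with a mean of 500 or more. DESeq2 passed 3, all lower, against 6.77%. The part of the zones in the values of the members was not tested.

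Of the genes with a mean of 500 or more, those most like *Aox3* over the 6 libraries by Pearson's r of log2 CPM were *Sirt5* (0.994), *Mup12* (0.992, of a multigene family whose members can share reads) and *Cox6a1* (0.991). *Aox3* had the smallest p among the lower members. For *Aldh1b1*, which had the smallest p among the 3 members with a higher mean, they were *Csrp2* (0.997), *Rbms1* (0.981) and *Tcf7l2* (0.951). These are the highest of 7818 correlations over the same 6 libraries, which share the genotypes, and are given as a description.

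**Figure D5:**
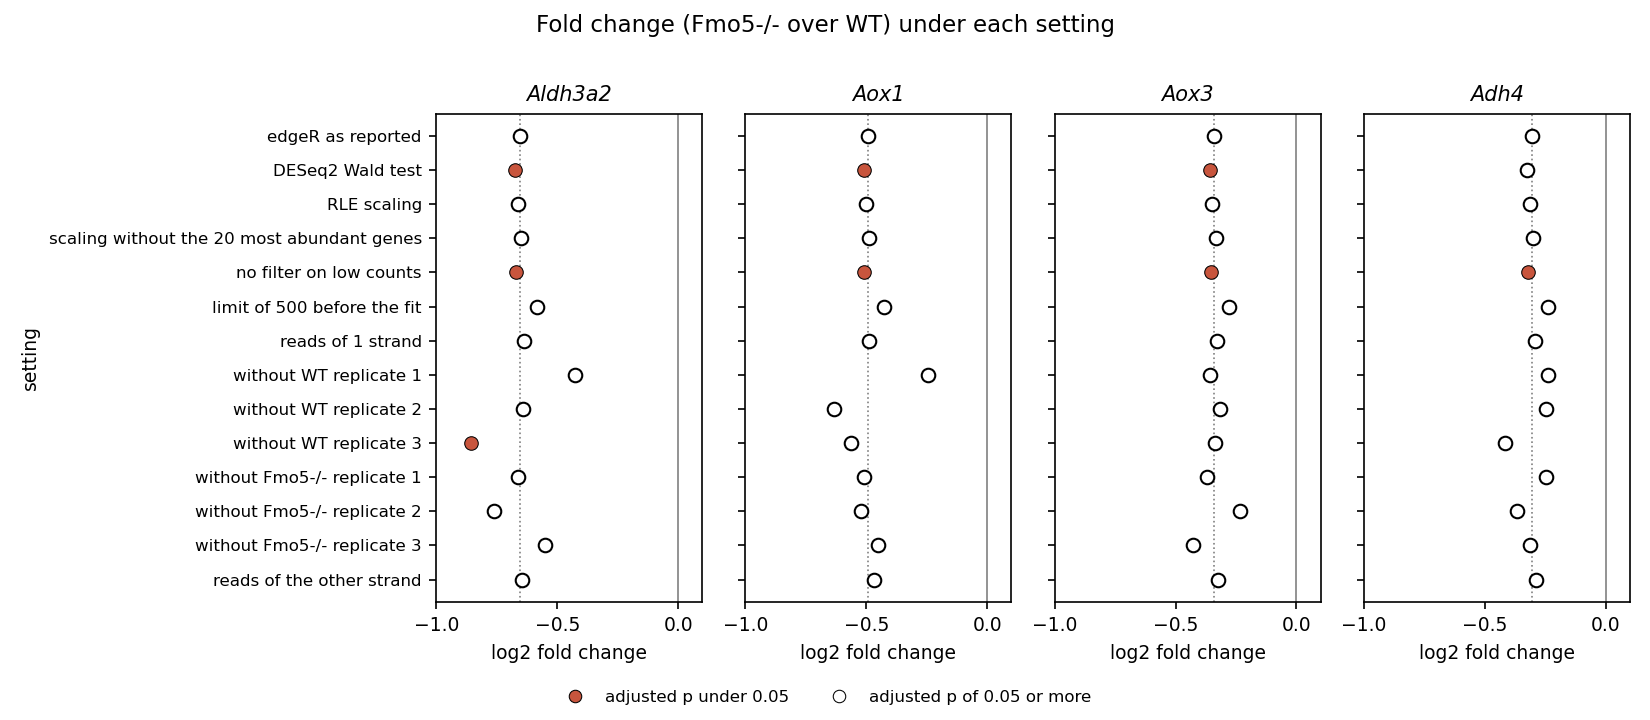
Log2 fold change (*Fmo5*-/- over WT) of the 4 genes with an unadjusted p under 0.05, as reported and under 13 other settings, filled where the adjusted p was under 0.05. All values are below 0. *Aldh3a2* is filled under 3 settings, *Aox1* and *Aox3* under 2 and *Adh4* under 1.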

How the data were processed

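Liver RNA was sequenced as single reads in 1 library per mouse. The authors mapped reads to mm10 with STAR 2.6.0c, and the deposited raw counts per gene for both strands together were analysed. The other deposited columns, which hold the reads of 1 strand each, had about equal totals and served as alternatives. The authors also deposited signal columns, raw counts divided by 1 size factor per library from DESeq2 1.22.2, which were used to check that the counts of both strands are the ones they analysed, and fold changes and p-values, which were not used. The annotation release of the authors is not given in the sources used here. GENCODE vM21 held 54409 of the 54446 identifiers and supplied spans and exon lengths.

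Genes were kept by filterByExpr (minimum count 10), given TMM factors and tested by robust quasi-likelihood in edgeR 4.0.16 (R 4.3.3), with Benjamini-Hochberg adjustment over 16734 genes. A call needed an adjusted p under 0.05 together with a normalized count averaging 500 or more. These are the limits of the study, which applied them to DESeq2 and not to edgeR. With DESeq2, 3 of the 10 genes passed them. Log2 CPM used a prior count of 2. DESeq2 1.42.0 was the other tool. Counts on genes were 66.2% to 69.2% of the 67753857 to 75632821 reads of a library. Reads outside genes, in several genes or mapping to several places were left out, and the biological coefficient of variation was 15.0%. Reads mapping to several places were 11.8% to 13.1% in WT and 10.4% to 11.5% in *Fmo5*-/- mice. Unmapped reads were 9.72% to 10.1% and 9.10% to 9.20%, and reads in several genes 3.52% to 3.62% and 3.72% to 3.98%. Reads outside genes were 8.63% and 8.28% in *Fmo5*-/- replicates 2 and 3 and 6.86% to 7.02% in the other libraries. The part of these shares in the results was not tested. The steps were tested on simulated data. Promoters are from RefSeq (GRCm38.p6).

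The 10 genes and all lists were chosen with earlier results of these data known. Named besides them are *Fmo5*, called genes of the lists, *Aldh1a1*, *Adh6a*, *Adh6b*, *Aox2*, *Aox4*, *Xdh* and *Cyp2e1*, up to 3 further genes per list and 3 near the clusters by adjusted p, and the 3 genes most alike to the member with the smallest p in each direction. *Sgpl1* was added after its value was seen. Markers of hepatocytes, Kupffer cells, leukocytes, adipocytes, endothelial cells, stellate cells, cholangiocytes, pancreas, foregut epithelium and both zones of the lobule are given in the report. The alternatives were DESeq2, RLE scaling, scaling without the 20 most abundant genes, no filter on low counts, the limit of 500 set before or left out, reads of 1 strand, no length correction of levels or the length of the longest protein-coding transcript and each library left out in turn.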

Additional observations from a re-analysis of the deposited data

How the results depend on the processing

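Of the genes with a mean of 500 or more, edgeR called 126 (83 lower and 43 higher). This count was 744 with DESeq2, 981 with no filter on low counts, 53 (23 lower and 30 higher) when only genes averaging 500 or more were fitted, 229 with no limit on the mean (116 lower and 113 higher), and 14 to 259 with each library left out in turn (33 without WT replicate 1, 52 without WT replicate 2, 14, 55 and 259 without *Fmo5*-/- replicates 1, 2 and 3). More genes were higher than lower without *Fmo5*-/- replicate 3 (107 lower and 152 higher), and the numbers were equal without WT replicate 2 (26 each) and *Fmo5*-/- replicate 1 (7 each) and near equal without *Fmo5*-/- replicate 2 (28 lower and 27 higher). Of the 10 genes described, 0 were called with edgeR, 3 with DESeq2 and 4 with no filter on low counts (*Adh4*, *Aldh3a2*, *Aox1* and *Aox3*, all lower), and 0 to 1 with 1 library left out (*Aldh3a2* without WT replicate 3). Of the list genes, 0 were called with edgeR, 10 with DESeq2, 14 with no filter and 0 to 2 with 1 library left out (*Acss3* and *Aldh1a1* without WT replicate 3). Near the clusters the 1 call became 3 with DESeq2, 4 with no filter, 0 when only genes averaging 500 or more were fitted, and 0 to 1 with 1 library left out (*1700066M21Rik* in place of *Mttp* without *Fmo5*-/- replicate 3). The cause was not tested.

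*Aldh3a2*, *Aox1*, *Aox3*, *Adh4*, *Adh5* and *Aldh2* kept a negative and *Aldh1l1* a positive log2 fold change under all 13 settings. With 1 library left out, the value ran from -0.86 to -0.43 for *Aldh3a2*, from -0.63 to -0.25 for *Aox1*, from -0.43 to -0.23 for *Aox3* and from -0.41 to -0.24 for *Adh4*. Values near 0 turned sign for *Adh1* (0.015 when only genes averaging 500 or more were fitted), *Adh7* (-0.24 to 0.23 with 1 library left out, and below 0 without WT replicate 1, WT replicate 3 or *Fmo5*-/- replicate 3) and *Aldh1b1* (-0.019 to 0.16 with 1 library left out, and below 0 only without *Fmo5*-/- replicate 2). The median of all genes with a mean of 500 or more moved by at most 0.06. All 13 settings scaled the libraries to each other, so none tested that choice. By plain share of counts on genes, *Adh1* had 0.185% in WT and 0.194% in *Fmo5*-/- mice. *Adh5* had 0.0454% and 0.0460% and *Aldh2* 0.297% and 0.298%, so these means were slightly higher in *Fmo5*-/- mice. The shares of *Aldh3a2*, *Aox1*, *Aox3* and *Adh4* stayed lower. The reads of the other strand as an alternative were chosen after seeing the data. With no length correction of WT levels, 6 of the 10 places moved: *Aldh2* from 2 to 1, *Adh1* from 1 to 2, *Adh4* from 5 to 8, *Adh5* from 7 to 6, *Aldh3a2* from 6 to 5 and *Aox1* from 8 to 7. With the longest protein-coding transcript as length, chosen after seeing the data, *Adh5* moved from 7 to 4, *Aox3* from 4 to 5 and *Adh4* from 5 to 7. No paired analysis was possible because the labels tie no WT mouse to an *Fmo5*-/- mouse.

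With 3 mice per genotype, the widest interval among the 10 genes described, that of *Adh7*, allows log2 fold changes from -0.55 to 0.62.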
